A study of Caenorhabditis elegans with 8 samples.

Results

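The comparison of *mec-3(u184)* with *mec-3(unk206)* used 2 of the 8 strains of a *C. elegans* study on the touch receptor neurons (TRNs). The members are the libraries of these strains, taken by strain name. Each strain had 2 libraries of RNA from whole animals at the last larval stage (L4), so 4 of the 16 libraries enter the test. The study states that the libraries of a strain are biological replicates. It examined how the splicing regulator MBL-1 acts on TRN differentiation, partly through the isoforms of *mec-3*.

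The first strain was *mec-3(u184)* with the TRN reporter *uIs134* on chromosome V. The study used *u184*, a stop codon allele, as the null of *mec-3*. The second strain was *mec-3(unk206)* with the reporter *uIs115* on chromosome IV. In *unk206* the first 2 introns of *mec-3* were deleted, which joins exons 1, 2 and 3, so that only the long isoform *mec-3a* can be made. Both strains were wild type for *mbl-1* and *mec-7*, and neither strain received a drug treatment. Both reporters express the red protein TagRFP from the *mec-17* promoter, and their insertions differ between the strains. The reporter insertion, any other difference between the strains and the *mec-3* allele therefore cannot be told apart in this comparison. *mec-3(syb8382)*, in which exon 2 is deleted and *mec-3a* cannot be made, carried *uIs134* as *mec-3(u184)* did and served as a second reference. *mbl-1(tm1563); mec-3(unk206)* carried *uIs115*, and its levels are given where they help to place those of *mec-3(unk206)*.

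As background, the TRNs are the small set of mechanosensory neurons that sense gentle touch to the body wall. The LIM homeodomain protein MEC-3 and the POU homeodomain protein UNC-86 bind together to the promoters of TRN genes and switch on the terminal features of these cells. They also maintain the expression of *mec-3* itself. Their targets include a mechanosensory channel of the DEG/ENaC family, the tubulins of the large microtubules that fill TRN neurites, and the enzyme that acetylates these microtubules. MEC-3 also acts in the PVD and FLP neurons, where it promotes branched dendrites.

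The sequence that separates the *mec-3* isoforms is exon 2, a stretch of 51 bases in the coding region at IV:10461243-10461293 (WBcel235, minus strand of the annotation). Exon 2 lies between intron 1 (IV:10461294-10461688, 395 bases) and intron 2 (IV:10461102-10461242, 141 bases). The designed repair template with which *unk206* was made is shown because it carries exons 1, 2 and 3 without either intron. The study put synonymous changes into its repair template to keep Cas9 from cutting it, so its bases can differ from the genomic ones. Exon 2 is in capitals, the 90 bases before it are the end of exon 1, and the 35 bases after it are the start of exon 3.
unk206 repair template: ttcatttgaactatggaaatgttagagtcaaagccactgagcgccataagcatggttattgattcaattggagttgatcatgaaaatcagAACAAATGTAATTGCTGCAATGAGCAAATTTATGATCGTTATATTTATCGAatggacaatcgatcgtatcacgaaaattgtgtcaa
The 51 capitals make 17 codons, so that the isoform without exon 2, *mec-3d*, keeps the reading frame. The forward primers that the study designed for the 2 isoforms show the junctions, with the end of exon 1 in lower case and the start of the next exon in capitals.
isoform a forward primer: gatcatgaaaatcagAACAA
isoform d forward primer: gatcatgaaaatcagATGGA
Gene counts sum over isoforms, so the values of *mec-3* below do not separate *mec-3a*, *mec-3c* and *mec-3d*.

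In the 4 libraries between 22309035 and 22446810 reads were counted to genes on the annotated strand, and depth therefore differed little. Libraries of a strain correlated at 0.991 in log2 CPM (counts scaled to library size) for both strains. CPM values below are on a common scale over the 8 libraries of the 4 *mec-3* strains. The neuronal markers *rgef-1*, *unc-119*, *rab-3* and *snb-1* and the intestinal markers *ges-1* and *elt-2* were detected in each library and were not called different. Myosin, collagen and oocyte markers were also detected, and some of them differed as described below. *vit-2* and *vit-6*, taken as markers of the yolk of adults, were high in these libraries labelled L4. They had 11339 to 15475 and 15079 to 20140 CPM. TRNs are few among the cells of a worm, and in RNA from whole animals fewer cells of a type and less RNA per cell cannot be told apart.

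Of 15040 genes tested with edgeR's quasi-likelihood test, 4004 (26.6%) were called at an adjusted p under 0.05. Of these, 2201 (14.6%) were higher and 1803 (12%) were lower in *mec-3(u184)*. A change of at least 2-fold was reached by 799 genes called higher (5.31%) and by 299 genes called lower (1.99%). The median log2 fold change over all genes tested was -0.0027. Without library 1 or library 2 of *mec-3(u184)* the count of called genes fell to 2231 or 2098, and of those called lower to 800 or 699. Without library 1 of *mec-3(unk206)* the count called lower was 2887.

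The TRN genes moved in both directions. Of 49 genes listed for the TRNs, 46 had enough counts to be tested. Of these, 11 (23.9%) were called lower and 12 (26.1%) higher, beside 12% and 14.6% of all genes tested. The other 23, *mec-2* and *mec-12* among them, were not called. Of the 11, 10 were lower by at least 2-fold, against 1.99% of all genes tested. They were *mec-3*, *mec-7*, *mec-17*, *mec-4*, *mec-10*, *mec-9*, *mec-18*, *mec-14*, *mtd-1* and *nlp-69*, and the remaining gene was *mec-15*. Only *mec-7*, *mec-17*, *mec-9* and *mec-15* had at least 10 counts in every library. The others were tested only through their counts in *mec-3(unk206)*, where they were higher, so the share at 2-fold depends partly on the filter. With 10 counts required in every library, 4 TRN genes were called lower. The median log2 fold change of the 46 genes was 0.14, beside -0.0027 over all genes tested. The 3 genes that were not tested had few counts, with at most 5 in any of the 4 libraries for *lin-32*, 7 for *poml-1* and 6 for *C03A3.3*.

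*mec-3* itself (IV:10458816-10461867) had 3 and 3 counts in *mec-3(u184)* and 30 and 45 in *mec-3(unk206)*. These correspond to 0.144 and 0.142 CPM and to 1.34 and 1.91 CPM. The groups did not overlap, and the summed counts were 11.4 times higher in *mec-3(unk206)* (exact 95% interval 5.02 to 32.2, counting error only). The fitted log2 fold change was -3.46 ± 0.45 (SE), with an adjusted p of 0.0010.

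Among the other transcription factors of TRN fate, no second gene was called lower. *unc-86*, which acts with MEC-3, had 2.25 and 2.08 CPM in *mec-3(u184)* and 1.52 and 1.06 CPM in *mec-3(unk206)*, with no overlap and an adjusted p of 0.077. *zag-1*, a zinc finger homeodomain factor, was called higher, from 5.06 and 3.10 CPM in *mec-3(unk206)* to 7.05 and 7.80 CPM in *mec-3(u184)* (log2 fold change 0.87, adjusted p 0.025). *egl-46*, a zinc finger factor of the FLP neurons, had 0.384 and 0.473 CPM in *mec-3(u184)* and 1.03 and 0.848 CPM in *mec-3(unk206)* and missed the threshold at 0.054. *ahr-1* and *pag-3* also had higher values in both *mec-3(u184)* libraries, at adjusted p of 0.071 and 0.194. *mec-3* was the only one of the 13 tested factors that was called lower (7.69%, beside 12% of all genes tested).

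The genes for TRN microtubules split into those that fell and those that did not. *mec-7* encodes the β-tubulin of the TRN microtubules. Its levels were 7.53 and 8.60 CPM in *mec-3(u184)* and 39.1 and 35.6 CPM in *mec-3(unk206)*, a log2 fold change of -2.21 ± 0.13 (SE, adjusted p 5.0e-05). *mec-17*, which encodes the α-tubulin acetyltransferase, had 2.73 and 2.46 CPM in *mec-3(u184)* and 14.4 and 19.04 CPM in *mec-3(unk206)*. Its log2 fold change was -2.68 ± 0.20 (adjusted p 9.8e-05), and for both genes every *mec-3(u184)* library lay well below every *mec-3(unk206)* library. *mec-12*, which encodes the α-tubulin partner of MEC-7 and is also used outside the TRNs, was at 44.5 and 46.6 CPM and 53.9 and 52.2 CPM. These groups did not overlap, but the log2 fold change of -0.22 ± 0.10 did not pass the test (adjusted p 0.132).

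*mec-15*, an F-box protein gene, fell by less than 2-fold, with 31.4 and 30.1 CPM in *mec-3(u184)* and 43.6 and 47.1 CPM in *mec-3(unk206)* (log2 fold change -0.56, adjusted p 0.0063). Without library 2 of *mec-3(u184)* its adjusted p was 0.081. In the other direction, *atat-2*, the second α-tubulin acetyltransferase gene, rose from 2.87 and 1.91 CPM in *mec-3(unk206)* to 4.46 and 5.72 CPM in *mec-3(u184)* (log2 fold change 1.10, adjusted p 0.013). *unc-33*, a CRMP family gene, and *unc-44*, an ankyrin gene, act in neurons generally and rose by 0.51 and 0.38 on the log2 scale. Both lost the call without either library of *mec-3(u184)*, with adjusted p between 0.067 and 0.224. *tbb-4*, a β-tubulin gene of ciliated neurons, had 1.77 and 1.75 CPM in *mec-3(u184)* and 1.03 and 0.933 CPM in *mec-3(unk206)* and missed the threshold (adjusted p 0.052).

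**Figure D1:**
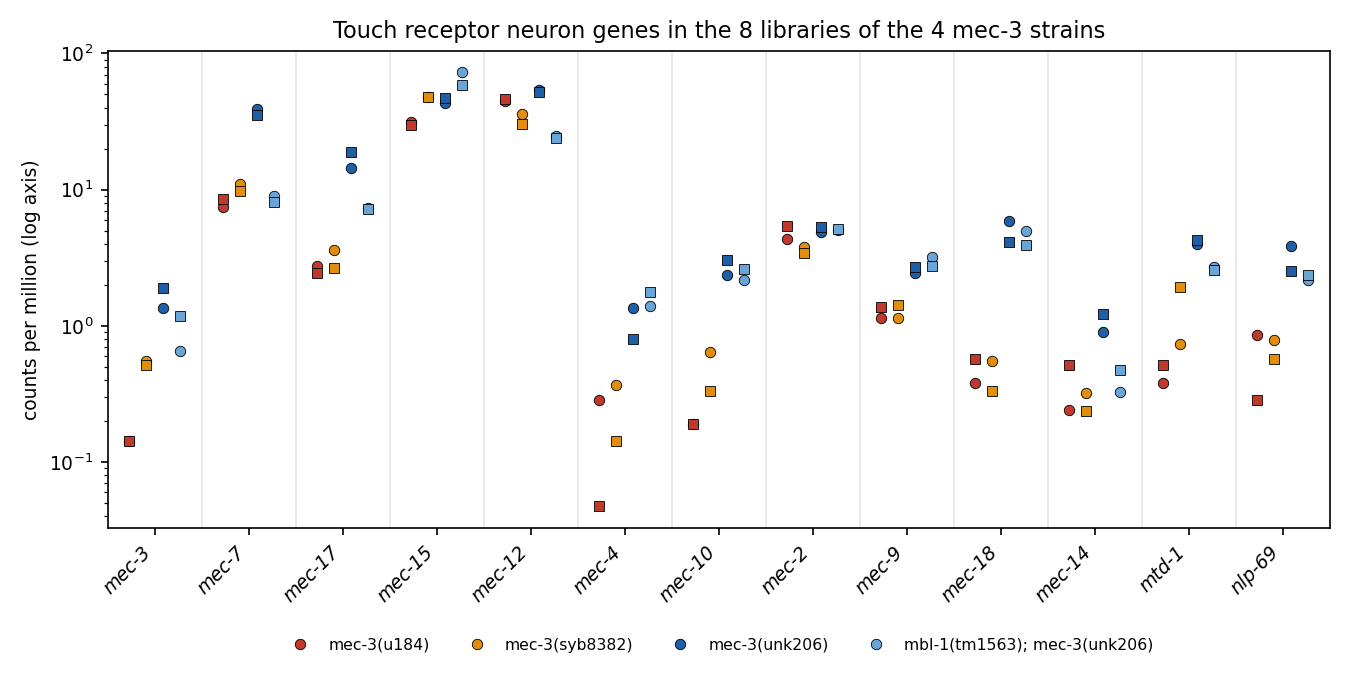
CPM (log axis) of 13 TRN genes in the 8 libraries of the 4 *mec-3* strains. Circles are library 1 and squares library 2 of a strain, without error bars. In each gene except *mec-2* both libraries of *mec-3(u184)* lie below both of *mec-3(unk206)*; for *mec-12* the gap is small.

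The pore-forming subunits of the touch channel were almost without counts in *mec-3(u184)*. *mec-10* had 4 and 4 counts in *mec-3(u184)* and 53 and 72 in *mec-3(unk206)*, which is 0.192 and 0.189 and 2.37 and 3.05 CPM. The summed counts were 14.3 times higher in *mec-3(unk206)* (exact 95% interval 7.04 to 33.9), and the fitted log2 fold change was -3.79 ± 0.38 (adjusted p 2.8e-04). *mec-4* had 6 and 1 counts in *mec-3(u184)* and 30 and 19 in *mec-3(unk206)*, a ratio of 6.41 (interval 2.89 to 16.8), with a log2 fold change of -2.64 ± 0.60 (adjusted p 0.013). Of the other members of the channel list, *mec-2*, which encodes the stomatin-like partner of the channel and is expressed in other neurons too, was at 4.31 and 5.39 CPM and 4.93 and 5.34 CPM. Its groups overlapped and its log2 fold change was -0.08 ± 0.19 (adjusted p 0.787). *crt-1*, which encodes the chaperone calreticulin of all tissues, was called higher with 2292 and 2365 CPM against 1736 and 1512 CPM.

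Extracellular components of the touch apparatus moved in both directions. *mec-9*, which encodes a secreted protein of the TRNs, had 1.15 and 1.37 CPM in *mec-3(u184)* and 2.46 and 2.71 CPM in *mec-3(unk206)* (log2 fold change -1.03 ± 0.26, adjusted p 0.018). Its adjusted p was 0.092 without library 1 of *mec-3(u184)*, 0.058 without library 2 of *mec-3(unk206)* and 0.089 in DESeq2. *mec-5*, a collagen gene expressed in the epidermis, rose from 23.1 and 20.9 CPM to 37.4 and 35.3 CPM. The extracellular matrix genes *him-4* (hemicentin) and *nid-1* (nidogen) rose likewise, by 0.81 and 0.85 on the log2 scale. These 3 genes are made mainly outside the TRNs, and which cells gave their rise was not tested.

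Among the other TRN effectors, 4 of the 10 tested were called lower and 4 higher (40% each, beside 12% and 14.6% of all genes). *mec-18*, which encodes a protein related to acyl-CoA ligases, had 8 and 12 counts in *mec-3(u184)* and 131 and 97 in *mec-3(unk206)* (0.384 and 0.567 and 5.87 and 4.11 CPM). The log2 fold change was -3.37 ± 0.33 (adjusted p 2.7e-04). *mtd-1*, a gene named for its dependence on *mec-3*, had 8 and 11 counts in *mec-3(u184)* and 89 and 100 in *mec-3(unk206)* (log2 fold change -3.17 ± 0.29, adjusted p 2.1e-04). The neuropeptide-like gene *nlp-69* had 18 and 6 counts in *mec-3(u184)* and 86 and 60 in *mec-3(unk206)* (log2 fold change -2.47 ± 0.43, adjusted p 0.0041). For these 3 genes both *mec-3(u184)* libraries lay below both *mec-3(unk206)* libraries. *mec-14*, which encodes a protein related to aldo-keto reductases, had 5 and 11 counts in *mec-3(u184)* and 20 and 29 in *mec-3(unk206)* (log2 fold change -1.47, adjusted p 0.035). It lost the call without library 1 of *mec-3(u184)* (adjusted p 0.225) and without library 2 of *mec-3(unk206)* (0.159), with no filter on low counts (0.065) and in DESeq2 (0.161).

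The 4 effectors called higher were *far-3*, *acbp-3*, *unc-103* and *rpm-1*, and which cells gave these rises was not tested. *far-3*, which encodes a fatty acid and retinol binding protein, rose from 3.99 and 4.71 CPM in *mec-3(unk206)* to 9.59 and 12.29 CPM in *mec-3(u184)* (log2 fold change 1.33, adjusted p 0.0015). *acbp-3*, an acyl-CoA binding protein gene, had 44.2 and 39.8 CPM against 24.5 and 33.5 CPM (adjusted p 0.031, and 0.134 without library 1 of *mec-3(u184)*). The potassium channel gene *unc-103* and the ubiquitin ligase gene *rpm-1* rose by 0.42 and 0.48 on the log2 scale. Neither call held without 1 of the *mec-3(u184)* libraries, with adjusted p between 0.144 and 0.230.

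**Figure D2:**
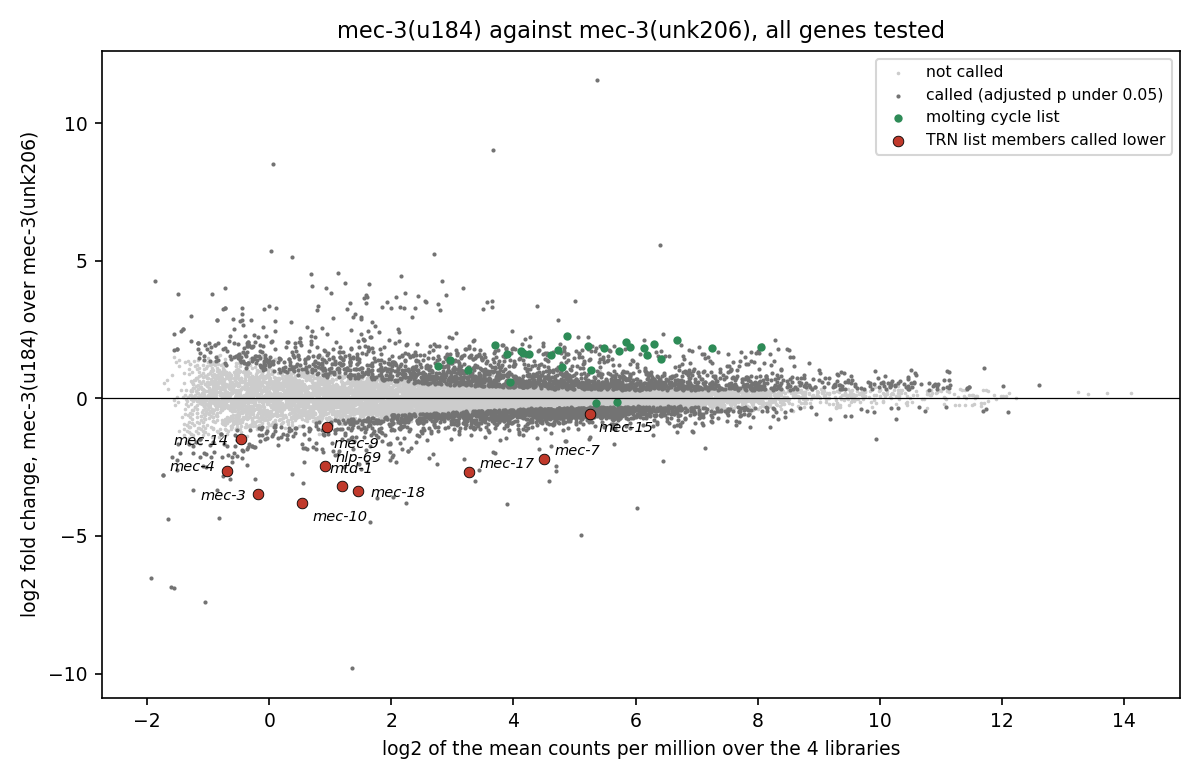
Log2 fold change of *mec-3(u184)* over *mec-3(unk206)* against the log2 of the mean CPM for the 15040 genes tested. Each point is a gene, dark grey where called; the 11 TRN genes called lower (red) lie at low to middle expression, from -0.56 to -3.79, and the molting cycle list (green) lies mostly above 1.

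The second reference places these values. *mec-3(syb8382)* carries the same reporter insertion as *mec-3(u184)*, and the 2 comparisons share the *mec-3(u184)* libraries. Against *mec-3(syb8382)*, 6857 of 14897 genes tested were called (46%), 3385 of them higher (22.7%) and 3472 lower (23.3%). *mec-7* was at 10.98 and 9.76 CPM in *mec-3(syb8382)* and 7.53 and 8.60 CPM in *mec-3(u184)*, and its log2 fold change of -0.38 did not pass edgeR's test (adjusted p 0.065, SE 0.14). *mec-17* was at 3.60 and 2.65 CPM, *mec-18* at 0.553 and 0.331 CPM and *mec-9* at 1.15 and 1.42 CPM in *mec-3(syb8382)*. Their log2 fold changes were -0.29 ± 0.24, 0.08 ± 0.45 and -0.05 ± 0.29, none called. The fall of these 4 genes was thus seen against *mec-3(unk206)* and was not detected against *mec-3(syb8382)*. Whether the 2 differences differ was not tested.

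*mec-3* was called lower against *mec-3(syb8382)* as well, with 3 and 3 counts beside 12 and 11 there (log2 fold change -1.89 ± 0.46, adjusted p 0.016). For *mec-10* the summed counts were 2.58 times higher in *mec-3(syb8382)* than in *mec-3(u184)* (exact 95% interval 1.10 to 6.73), and for *mec-4* the ratio was 1.54 (0.546 to 4.69). Both genes had too few counts there to be tested. *mtd-1* was at 0.738 and 1.94 CPM in *mec-3(syb8382)*, and its fitted difference of -1.57 ± 0.55 on the log2 scale was not called (adjusted p 0.055). *mec-12* went the other way, with 36.1 and 30.4 CPM in *mec-3(syb8382)* and a log2 fold change of 0.43 (adjusted p 0.012).

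In *mbl-1(tm1563); mec-3(unk206)*, which shares the *unk206* allele and *uIs115*, the levels followed different patterns. *mec-10*, *mec-18* and *mec-9* had 2.17 and 2.61, 4.96 and 3.92 and 3.20 and 2.77 CPM there, all above both *mec-3(u184)* libraries. *mec-7* had 8.98 and 8.08 CPM there, a range that overlaps that of *mec-3(u184)*. *mec-17* had 7.34 and 7.20 CPM and lay between the *mec-3(u184)* and the *mec-3(unk206)* libraries. No test was made on this strain.

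The wild type was sequenced from libraries without strand information, so its levels can only be set beside unstranded values of the other strains. On that scale *mec-7* was at 212 and 149 CPM in the wild type, 35.4 and 31.6 in *mec-3(unk206)* and 6.88 and 7.66 in *mec-3(u184)*. *mec-17* was at 59.4 and 40.5, 13.4 and 16.8, and 2.38 and 2.29 CPM in the same order. The neuropeptide processing gene *egl-3*, used across the nervous system, was also higher in the wild type, at 231 and 203 CPM beside 86.4 and 71.3 in *mec-3(unk206)* and 114.4 and 104.9 in *mec-3(u184)*. The kind of library and the strain cannot be told apart here, and no test was made.

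Neurons that share factors with the TRNs were examined next. Of 19 tested genes of the PVD and FLP neurons, 3 (15.8%, near the 14.6% of all genes) were called higher and none lower by edgeR's test. At an unadjusted p under 0.05, 2 of them had a negative log2 fold change, and DESeq2 called 0 lower. The 3 were the cell fusion gene *eff-1*, the Rac exchange factor gene *tiam-1* and the channel gene *trpa-1*, with log2 fold changes of 0.84, 0.77 and 0.55. Each lost the call without 1 library of *mec-3(u184)*, at adjusted p of 0.132, 0.154 and 0.308, and *eff-1* also without library 2 of *mec-3(unk206)* (0.111). *dma-1*, which encodes the receptor that guides PVD dendrite branches, had 13 and 5 counts in *mec-3(u184)* and 17 and 30 in *mec-3(unk206)*. Its log2 fold change of -1.24 ± 0.49 missed the threshold (adjusted p 0.089), and it was called without library 1 of *mec-3(u184)* (0.022). Among 17 tested markers of BDU and other neurons, 1 was called (5.88%, beside 26.6% of all genes). It was the FMRFamide-like peptide gene *flp-8*, rising from 2.02 and 2.67 to 5.32 and 5.77 CPM (log2 fold change 1.24, adjusted p 0.0042).

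*mbl-1* was at 51.01 and 51.6 CPM in *mec-3(u184)* and 50.1 and 42.4 CPM in *mec-3(unk206)*, a log2 fold change of 0.15 ± 0.11 that was not called (adjusted p 0.338). Without library 1 of *mec-3(unk206)* it was called, at 0.26 (adjusted p 0.031). Of 16 tested splicing factors of neurons and muscle, only *sym-2*, an hnRNP gene, was called, and it rose from 16.44 and 15.1 to 26.4 and 22.3 CPM (adjusted p 0.010, and 0.121 without library 1 of *mec-3(u184)*). Exons of *sym-2* overlap those of *twk-4* on the same strand, so its count is less certain. The share of this list called was 6.25%, beside 26.6% of all genes. In the DLK-1 pathway, which controls axon growth and microtubule dynamics, 3 of 9 genes rose and 1 fell. These were 33.3% and 11.1%, beside 14.6% and 12% of all genes. The kinase gene *mak-2* rose by 0.56, the transcription factor gene *cebp-1* by 0.58 and *rpm-1* by 0.48 on the log2 scale, and *uev-3*, a ubiquitin-conjugating enzyme variant, had a log2 fold change of -0.58 (adjusted p 0.017). Without library 2 of *mec-3(u184)* the adjusted p of *mak-2* was 0.110 and that of *cebp-1* 0.123, and *uev-3* lost the call without either library of that strain, at 0.121 and 0.061. Of 20 pan-neuronal genes, 4 (20%, beside 14.6% of all genes) rose and none fell, with a list median of 0.08. *unc-10*, *egl-21*, *egl-3* and *unc-104* rose by 0.55, 0.53, 0.50 and 0.44 on the log2 scale, and each lost the call without 1 or the other library of *mec-3(u184)*, with adjusted p between 0.071 and 0.183, and *unc-10* also without library 2 of *mec-3(unk206)* (0.070).

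**Figure D3:**
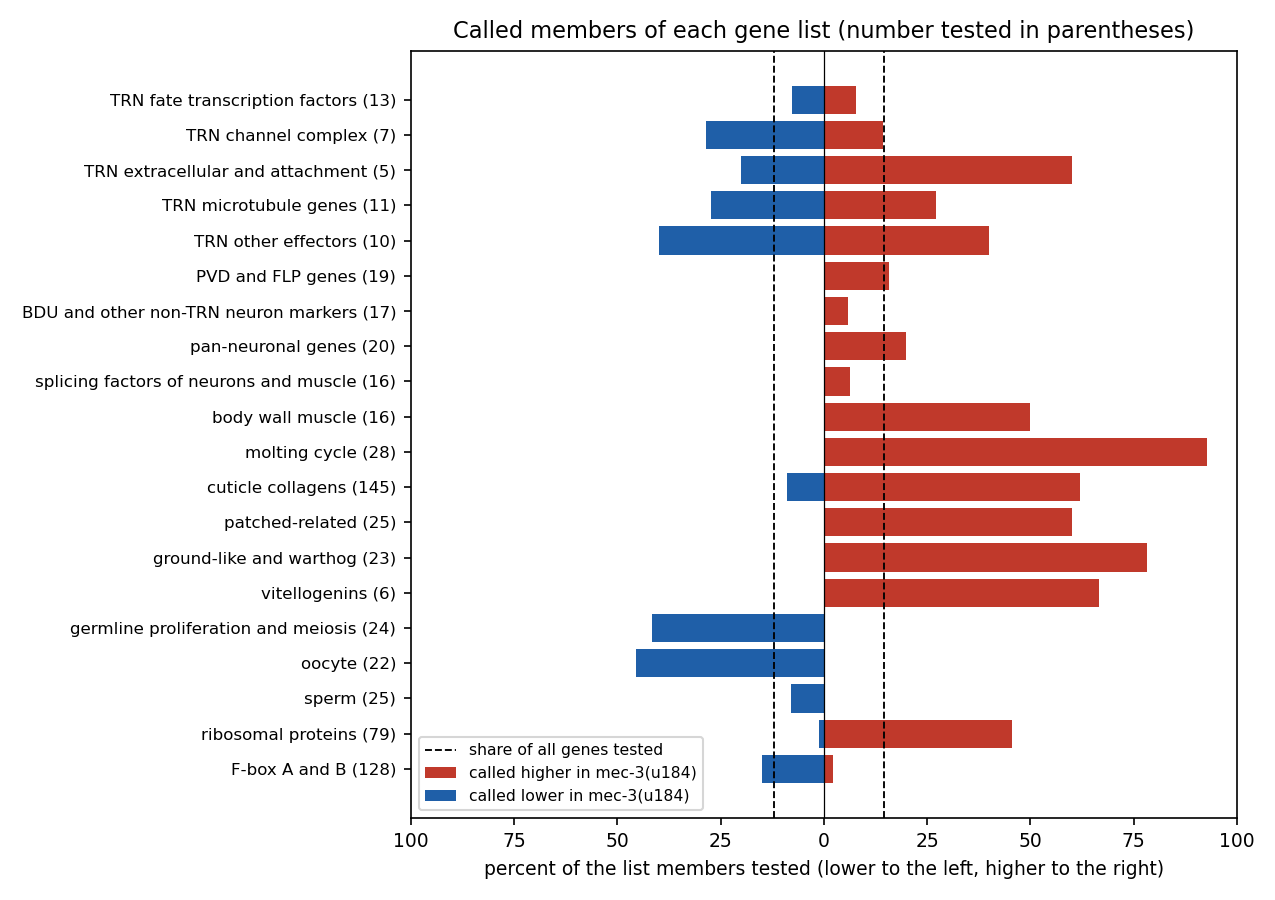
Percent of the tested members of each gene list that were called higher (red, to the right) or lower (blue, to the left) in *mec-3(u184)*. Dashed lines mark the shares of all genes tested, 14.6% higher and 12% lower; the molting cycle list reaches farthest to the right and the oocyte list farthest to the left.

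Of the gene lists examined, that of the molting cycle had the highest share of called genes. During each larval stage worms make a new cuticle, and genes for collagens, matrix proteins and proteases rise and fall with that cycle. Of 28 genes listed for it, all were tested and 26 were called higher in *mec-3(u184)*, 25 of them by at least 2-fold, against 5.31% of all genes. The list median was 1.68 on the log2 scale. *mlt-10* had 60.3 and 37.3 CPM in *mec-3(u184)* and 11.4 and 9.03 CPM in *mec-3(unk206)* (log2 fold change 2.26 ± 0.23, adjusted p 3.0e-04), although its exons overlap those of 2 other genes on the same strand. The collagen genes *rol-8* and *bli-1* rose by 2.11 and 1.98, and *noah-1*, which encodes a zona pellucida domain protein of the cuticle, by 2.05. The exceptions, named after their values were seen, were the protease gene *nas-37* and the nuclear receptor gene *nhr-23*, at -0.17 and -0.12. *nhr-23* was called lower without library 2 of *mec-3(unk206)* (adjusted p 0.019).

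The mean log2 CPM of the 28 genes was 5.68 and 5.65 in *mec-3(u184)* and 4.33 and 3.99 in *mec-3(unk206)*. It was 4.45 and 3.83 in *mec-3(syb8382)* and 4.61 and 4.90 in *mbl-1(tm1563); mec-3(unk206)*, so both *mec-3(u184)* libraries lay above the other 6. This mean differed between the strains together with the results given here, and its part in them was examined only in 1 added fit. In that fit, chosen after the data were seen, the mean was a covariate over the 8 libraries of the 4 strains and 36 genes were called. Both *mec-3(u184)* libraries stood apart from the other 6 in this mean, so the fit can hardly tell the mean and the strain apart. A lost call therefore does not show that a difference goes with the mean. Of the 11 TRN genes only *mec-7* was called in this fit, with a log2 fold change of -2.56 (adjusted p 0.026). *mec-3*, *mec-17*, *mec-10*, *mec-4* and *mec-18* had values of -3.74, -2.81, -4.58, -5.54 and -4.36 at adjusted p between 0.121 and 0.404. *nlp-69* and *mec-14* had -4.12 and -1.66. *mtd-1*, *mec-9* and *mec-15* had smaller falls than in the main fit, at -1.34, -0.33 and -0.31. The adjusted p of these further genes lay between 0.224 and 0.949.

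**Figure D4:**
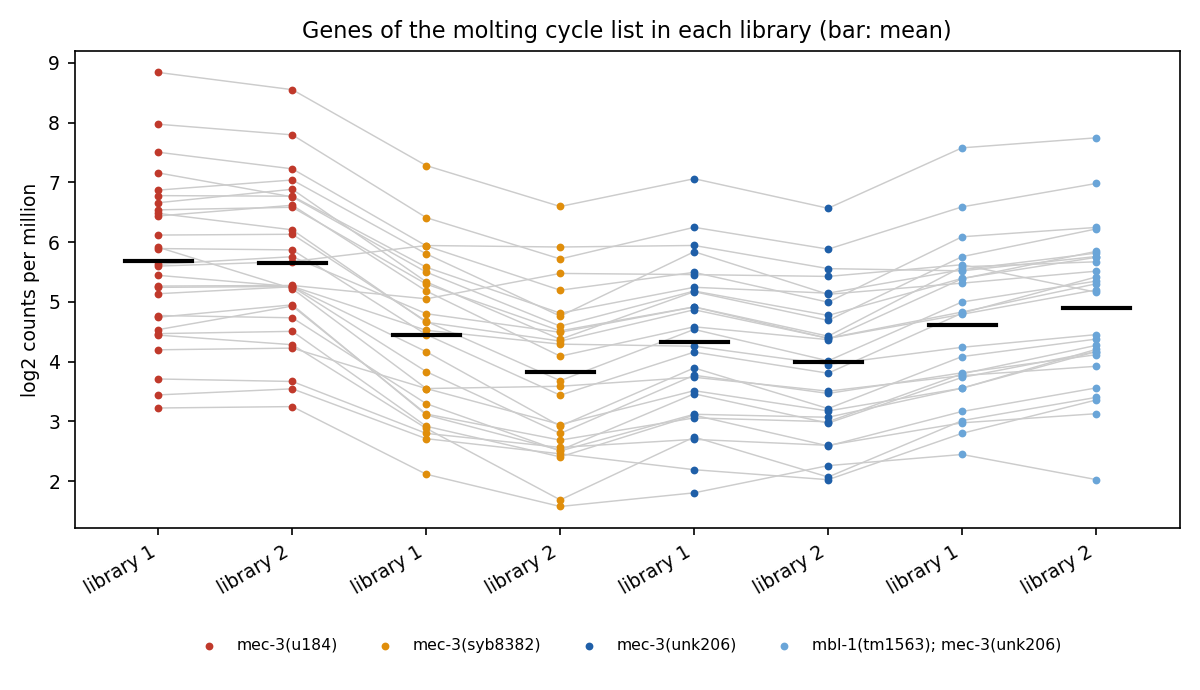
Log2 CPM of the 28 genes of the molting cycle list in each of 8 libraries. Grey lines join a gene across libraries and black bars mark the mean; the bars of *mec-3(u184)* stand at 5.68 and 5.65 and those of the other strains between 3.83 and 4.90.

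Other families of the cuticle and epidermis had more genes called higher than lower. Of 145 tested cuticle collagen genes, 90 (62.1%) rose and 13 (8.97%) fell, with a median of 0.84. Of 23 tested genes of the ground-like and warthog families, 18 (78.3%) rose and none fell, and of 25 tested patched-related genes 15 (60%) rose and none fell, beside 14.6% and 12% of all genes. *grl-7* rose by 1.82, *wrt-1* by 1.79, *qua-1*, a hedgehog-related gene, by 1.89 and *ptr-4* by 1.57 on the log2 scale. *qua-1*, *ptr-4* and the warthog gene *wrt-10* are also in the molting cycle list, so these families partly recount its genes. The list of hypodermis and seam genes was mixed, with 3 of 10 tested genes higher, 2 lower and a median of 0.11. Its 3 higher genes were the collagen genes *dpy-7*, *rol-6* and *dpy-10*. The epidermal marker *dpy-7* had 30.9 and 33.7 CPM against 11.2 and 8.35 CPM, and *rol-6* had 115 and 106 CPM against 41.5 and 32.2 CPM. The 2 lower genes encode transcription factors of the epidermis. *lin-26*, a zinc finger factor gene named after its values were seen, had a log2 fold change of -0.46 (adjusted p 0.023, and 0.069 and 0.231 without library 1 or library 2 of *mec-3(u184)*). *elt-1*, which encodes a GATA factor, was lower, with 9.59 and 10.8 CPM against 15.01 and 17.5 CPM (adjusted p 0.011, and 0.078 without library 1 of *mec-3(u184)*).

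In the lists of germline proliferation and meiosis and of oocytes, the genes that were called were lower in *mec-3(u184)*, by less than 2-fold. Of 24 genes of germline proliferation and meiosis 10 (41.7%) fell and none rose, with a median of -0.28. Of 22 oocyte genes 10 (45.5%) fell and none rose, with a median of -0.34. Over all genes tested, 12% fell and 14.6% rose. *syp-2*, a gene of the synaptonemal complex, had 17.1 and 16.97 CPM in *mec-3(u184)* and 31.2 and 34.9 CPM in *mec-3(unk206)* (log2 fold change -0.96, adjusted p 8.9e-04). The maternal RNA-binding protein genes *mex-6* and *spn-4* fell, with log2 fold changes of -0.67 and -0.65. Of 25 tested sperm genes 2 (8%) fell, below the 12% of all genes. Of 29 tested major sperm protein genes, whose similar copies may share reads, 2 (6.90%) rose and 5 (17.2%) fell, 1 of them by at least 2-fold. The share that fell was near that of all genes. Whether development or the size of the germline differed between the strains was not measured.

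The muscle and yolk genes that were called were higher. Of 16 body wall muscle genes 8 (50%, beside 14.6% of all genes) rose and none fell. The myosin gene *unc-54* was at 2984 and 2881 CPM against 1678 and 1294 CPM (log2 fold change 0.98, adjusted p 0.0011). The giant muscle protein genes *unc-22* and *unc-89* rose by 0.82 and 0.81 on the log2 scale. Against *mec-3(syb8382)*, 3 of the 16 (18.8%, beside 22.7% of all genes) were called higher. *unc-54* was not called there (log2 fold change 0.15, adjusted p 0.182). Of the 6 vitellogenin genes, *vit-1*, *vit-3*, *vit-4* and *vit-5* were called higher, with log2 fold changes of 1.09, 0.97, 0.84 and 0.48. The adult yolk markers *vit-2* and *vit-6* were not called, at 0.18 and 0.19. Without library 1 of *mec-3(unk206)* they were, at adjusted p of 0.036 and 0.045. *vit-5* lost the call without library 1 of *mec-3(u184)* (adjusted p 0.169). The members of this family are similar in sequence, and reads may be shared between some of them. Against *mec-3(syb8382)* none of the 6 was called by edgeR's test, with a median of -0.07 (0 had an unadjusted p under 0.05 and DESeq2 called 0). Of 79 ribosomal protein genes 36 (45.6%) rose and 1 fell, with a median of 0.34, led by *rps-29* at 324 and 354 CPM against 169.6 and 97.02 CPM. Against *mec-3(syb8382)*, 2 of the 79 (2.53%) were called higher and 3 (3.80%) lower, with a median of 0.02. Over all genes tested against that strain, 22.7% were higher and 23.3% lower. For the pan-neuronal, muscle, epidermal and germline lists in which edgeR called none in 1 direction, DESeq2 called 0 in that direction, and at an unadjusted p under 0.05 only 1 patched-related gene was lower.

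The largest single differences were in genes outside these lists. *F56A4.3* on chromosome V had 3485 summed counts in *mec-3(u184)* and 1 in *mec-3(unk206)*, a ratio of 3807 (exact 95% interval 683 to 150429, counting error only). It was at 0 counts in both libraries of *mec-3(syb8382)*, of *mbl-1(tm1563); mec-3(unk206)* and of the wild type, and at 672 to 2631 unstranded counts in the 4 libraries that carry *mec-7(u278)*. *T28D9.4* on chromosome II had 1069 summed counts in *mec-3(u184)* and 2 in *mec-3(unk206)*, a ratio of 584 (161 to 4828). It was at 37.4 and 36.5 CPM in *mec-3(syb8382)* and at 0 counts in both libraries of *mbl-1(tm1563); mec-3(unk206)*, so its near absence went with both strains that carry *unk206*. The gene WBGene00016086, which has no symbol in the annotation used here, had 0 counts in *mec-3(u184)* and 117 and 118 in *mec-3(unk206)*, at least 71.7-fold higher against a floor of 3 counts over both libraries. It had 6.64 and 6.16 CPM in *mec-3(syb8382)*.

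*C38D9.2*, on chromosome V, had its highest values in *mec-3(u184)* among the 4 *mec-3* strains, with 168 and 162 CPM there and 3.81 and 3.14 CPM in *mec-3(unk206)*. Its values in *mec-3(syb8382)* were 0.876 and 1.52 CPM, and its neighbour *C38D9.13* had 9.06 and 8.08 CPM against 0.358 and 0.424 CPM. In the other direction, *C09B8.4* on the X chromosome had its highest values in *mec-3(unk206)*, with 66.8 and 66.996 CPM, beside 2.21 and 2.03 in *mec-3(u184)*, 3.46 and 3.55 in *mec-3(syb8382)* and 1.23 and 1.46 in *mbl-1(tm1563); mec-3(unk206)*. *acdh-2*, which encodes an acyl-CoA dehydrogenase and shares exon sequence with *ins-13*, had 133 and 110.2 CPM in *mec-3(unk206)* and 7.48 and 7.80 CPM in *mec-3(u184)*. *mec-17* was among the 12 largest falls at 5 CPM or more, and no other gene of the TRN lists was. *mec-10*, *mec-3*, *mec-18* and *mtd-1* had more negative log2 fold changes than *mec-17* (-3.79, -3.46, -3.37 and -3.17). Their mean in *mec-3(unk206)* was under 5 CPM.

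Several of the largest rises rested more on library 1 than on library 2 of *mec-3(u184)*. *F30H5.3* had 23.7 and 1.51 CPM in *mec-3(u184)* and 0.358 and 0.297 CPM in *mec-3(unk206)*, and *chtb-1* had 31.8 and 2.27 CPM and 0.986 and 1.10 CPM. The first values were over 10 times the second, whereas for *pqn-63* both *mec-3(u184)* libraries were close, at 16.3 and 11.4 CPM, beside 1.03 and 1.02 CPM in *mec-3(unk206)*. Groups did not overlap for these 3 genes, and all were called (adjusted p 0.015, 0.020 and 5.9e-05).

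Called genes were spread over every nuclear chromosome. The share called was 22.8% on chromosome III, 25.9% on IV, which holds *mec-3* and *uIs115*, 29.1% on V, which holds *uIs134*, and 29.9% on X. The directions were uneven on the X chromosome, where 523 genes were called higher (25.1%) and 99 lower (4.76%), and the median log2 fold change was 0.21. On chromosome I more genes were lower than higher, 379 beside 258. In windows of 1 Mb with at least 20 tested genes the share called ranged from 14.8% to 39.8%, with a median of 26.8%. The window of *mec-3* on chromosome IV had 61 of 225 genes called (27.1%), close to that median.

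**Figure D5:**
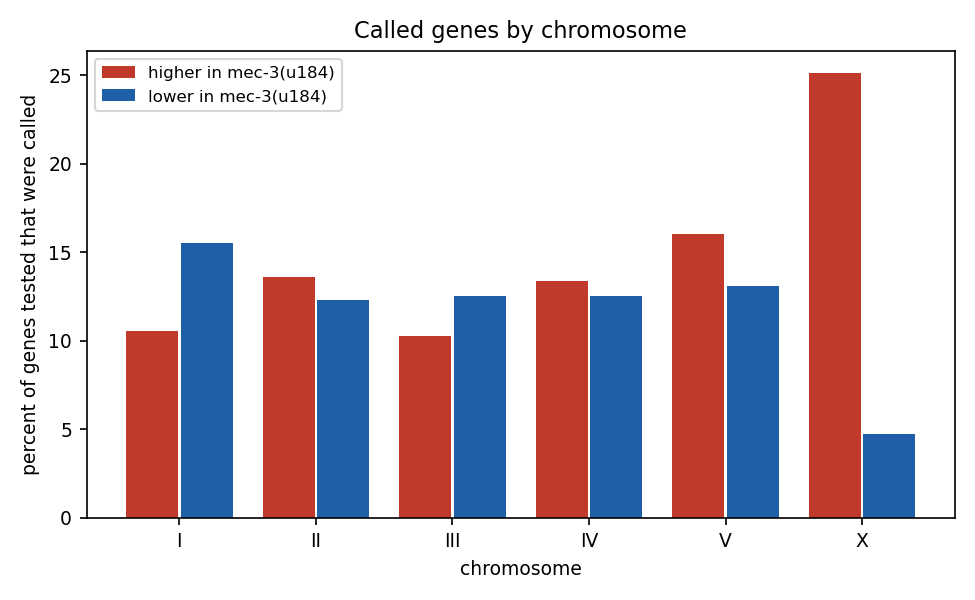
Percent of the tested genes of each chromosome called higher (red) or lower (blue) in *mec-3(u184)* against *mec-3(unk206)*. The bar for genes called higher is tallest on the X chromosome, at 25.1%, where the bar for genes called lower is at 4.76%.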

How the data were processed

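RNA of whole L4 worms was sequenced as 100-base read pairs, 2 libraries per strain. The authors aligned the reads with STAR 2.7.10 to the genome build WBcel235, as the submitters' processing notes name them, and deposited the whole-number gene counts that STAR writes per library, without normalization, as 1 unstranded and 2 stranded columns. In the 4 libraries between 97.7% and 97.9% of stranded counts lay on the second strand, and that count was used. Its rows that name no gene were left out: of all reads, 1.48% to 1.72% were unmapped, 3.47% to 4.24% mapped to several places, 1.20% to 1.34% lay in no gene and 0.492% to 0.589% were ambiguous. Positions came from the WBcel235 annotation of Ensembl, which matched 46603 of 46778 genes.

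Counts of both strains were filtered with filterByExpr, normalized by TMM and compared with the quasi-likelihood test of edgeR 4.0.16 (R 4.3.3) with Benjamini-Hochberg adjustment. A gene was called at an adjusted p under 0.05. Adjusted p-values and standard errors in the text come from this test unless DESeq2 1.42.0 or another fit is named. The script was tested on simulated data beforehand. An exact permutation test of 2 against 2 libraries cannot go below p = 0.33 and was not used. Counting intervals are exact binomial intervals of the summed counts and cover counting error only.

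The members, as this pair of strains, and the gene lists were chosen with earlier results of these data known, and the libraries of each strain were taken by strain name. Lists are described by counts and medians, with no test of the list. Named were all TRN, PVD and FLP, BDU, splicing factor and DLK-1 list members that were called or did not overlap with an absolute log2 fold change of at least 0.58, 9 genes in any case, the 12 largest rises and falls at 5 CPM or more, genes with at most 3 counts in both libraries of 1 strain and at least 50 in the other, and up to 4 called members of each further list; not all of these are printed. A search of promoters for the UNC-86/MEC-3 site was planned and not run, since no promoter sequences were used here.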

Additional observations from a re-analysis of the deposited data

How the results depend on the processing

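Depth limits the low TRN genes most: *mec-3*, *mec-4* and *mec-10* had 8 summed counts or fewer in *mec-3(u184)*. With RLE size factors, DESeq2, no filter on low counts, the unstranded count or the spread of 8 libraries, the counts of called genes stayed within 1.5 times those given above, except that DESeq2 called 2 TRN genes lower against *mec-3(syb8382)* in place of 4. Requiring 10 counts in every library left 4 TRN genes called lower against *mec-3(unk206)*, since fewer genes were tested.

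Leaving out 1 library at a time gave 2098 to 5782 genes called against *mec-3(unk206)*, 1399 to 2895 higher, 699 to 2887 lower and 9 to 12 TRN genes lower. Against *mec-3(syb8382)* the ranges were 3906 to 7028 called, 1931 to 3437 higher, 1975 to 3591 lower and 1 to 4 TRN genes lower. The log2 fold changes of 2 genes not called above changed sign, *mec-2* (-0.25 to 0.069) and *nhr-23* (-0.30, called, to 0.069). With 1 library left in a strain, that library is assumed to vary like the others.

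The library numbers were not shown to pair the libraries: replicate differences correlated at 0.04 (*mec-3(unk206)*) and -0.12 (*mec-3(syb8382)*) with those of *mec-3(u184)* over 12239 genes. With the library number as a replicate block 4628 and 5633 genes were called.

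With the mean of the molting cycle list as a covariate, a fit added after the data were seen, 36 genes were called against *mec-3(unk206)*, 19 higher and 17 lower, 1 of them a TRN gene, and 9 against *mec-3(syb8382)*, 2 higher, 7 lower and 0 TRN genes; the cause was not tested. The mean and the strain can hardly be told apart in this fit, so a lost call does not show that a difference goes with the mean. Of 92 named genes, 57 lost the call in this fit without turning direction. Of these, 24 had a log2 fold change as large as before or larger (*nlp-69* -4.12, *F56A4.3* 15.6, *flp-8* 2.30, *vit-1* 1.73, *rpm-1* 1.08). The other 33 had a smaller one, among them *mtd-1* (-1.34), *mec-9* (-0.33) and *mec-15* (-0.31). Another 18 kept their direction and their side of the threshold, and 17 turned direction without a call, at log2 values of -0.30 (*ahr-1*), -0.84 (*dpy-10*), 0.76 (*nas-37*), -0.11 (*far-3*), -0.023 (*unc-103*), -0.074 (*sym-2*), -0.089 (*unc-10*), -0.041 (*egl-3*), -0.69 (*dpy-7*), -0.012 (*rol-6*), -0.26 (*noah-1*), -0.16 (*bli-1*), -0.59 (*nlp-34*), -0.56 (*qua-1*), -0.11 (*grl-7*), -0.58 (*ptr-4*) and -0.70 (*rps-29*). Some named genes, such as *nas-37*, *noah-1*, *bli-1*, *qua-1*, *ptr-4*, *mlt-10* and *rol-8*, belong to the list whose mean is the covariate. Their values in this fit were therefore partly fixed in advance and say nothing about these genes.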

Other observations

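Beside the 14.6% of all genes called higher in *mec-3(u184)* and the 12% called lower, genes of intestinal defence and metabolism had the following values. Of 28 tested genes of the intestinal immune response 9 (32.1%) were higher and 1 (3.57%) lower, and these included *irg-5* at 648 and 363 CPM against 128 and 104.4 CPM and *clec-60* at 43.3 and 84.1 CPM against 21.1 and 20.6 CPM. The lower gene was the lysozyme gene *lys-7*, at 60.5 and 64.997 CPM against 221 and 215 CPM. Against *mec-3(syb8382)*, *lys-7* did not pass edgeR's test (log2 fold change -0.11, adjusted p 0.538), and it was at 261 and 189.8 CPM in *mbl-1(tm1563); mec-3(unk206)*. Of 38 tested glutathione S-transferase genes 15 (39.5%) were higher and 1 lower, led among the abundant members by *gst-10* at 208 and 204 CPM against 74.9 and 74.4 CPM. The fatty acid desaturase gene *fat-5* had 40.6 and 42.1 CPM against 15.9 and 9.63 CPM. The flavin monooxygenase gene *fmo-2* was lower, at 1.63 and 2.27 CPM against 6.72 and 7.46 CPM. The methionine cycle genes *sams-1* and *metr-1* had log2 fold changes of 0.85 and 0.60.

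Of 128 tested F-box genes of the A and B families, 19 (14.8%) were lower and 3 (2.34%) higher, with a median of -0.15, and the share called lower was near the 12% of all genes. Among 60 tested neuropeptide-like protein genes 12 (20%) were higher and 3 (5%) lower, together 25% beside 26.6% of all genes, and *nlp-34* and *nlp-25* had log2 fold changes of 2.53 and 2.19. Of 58 tested homeobox genes 5 (8.62%) were higher and 6 (10.3%) lower, both below the shares of all genes, and *mec-3* was the member with the most negative log2 fold change.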
